A study of Mus musculus with 20 samples.

Results

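The genes described here are 10 known targets of the transcription factor p53 that promote cell death: Bax, Bbc3, Pmaip1, Fas, Tnfrsf10b, Eda2r, Aen, Perp, Phlda3 and Ei24. They were taken by gene symbol from the sense-strand count table, and all 10 were found among its 21078 genes. RNA was sequenced from the thoracic aorta of 20 male wildtype C57BL/6 mice aged 10 to 12 weeks, killed 4 h after whole-body exposure. Of these, 10 mice received protons and 10 received gamma rays, at 0, 5, 10, 25, 50, 75, 100, 125, 150 or 200 cGy, with 1 mouse for each dose and radiation type. The 0 cGy animals were sham controls that were put into the proton or the gamma irradiator without being exposed. A dose thus had no replicate within a radiation type, and the tests rest on trends over dose and on the 2 mice that share a dose.

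p53 is held at low levels in resting cells by Mdm2 and is stabilised after DNA damage, when it binds response elements in its target genes and raises their transcription. Its apoptotic targets act at several steps of cell death. Bax permeabilises the outer mitochondrial membrane, and Bbc3 (PUMA) and Pmaip1 (NOXA) are BH3-only proteins that free Bax and Bak1 from their inhibitors. Fas and Tnfrsf10b are death receptors at the cell surface, and Eda2r is a receptor of the same tumour necrosis factor receptor family. Aen is a nuclease, Perp a membrane protein of desmosomes, Phlda3 a repressor of AKT signalling and Ei24 a protein of the endoplasmic reticulum.

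Each library held between 6051657 and 6058006 sense-strand counts, so that depth hardly differed between mice. Equal depth does not remove the differences in tissue make-up and in the relation to GC content that are described below. A floor of 3 counts amounted to 4.95e-05% of a library. Such a floor covers counting error only. A gene was tested if its mean count over the 20 mice was at least 5, which 13124 genes reached. Of the 10 members 9 reached it, and Pmaip1, with a mean count of 2.65, did not. The tissue carried the markers of arterial smooth muscle, with Acta2 counts of 77335 to 161018, while the 8 lymphocyte markers together held 1 to 60 counts in a mouse. Of the 8 epithelial markers, the defining Epcam, Cdh1 and Krt5 stood at 0 or 1 count and Krt14, Krt8 and Trp63 at 0 to 23, while Krt18 reached 82 to 180 and Dsp 1654 to 3460. In bulk tissue, fewer cells of a type and less RNA per cell cannot be told apart.

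Several libraries stood apart. The summed count of 7 brown fat markers, which include Ucp1, was 14594 in the Proton mouse at 75 cGy and 5706 in the Gamma mouse at 100 cGy, against 937 to 4238 in the other 18 mice, and all 7 markers were detected in every mouse. The summed count of 5 smooth muscle markers was lowest in the Proton mouse at 75 cGy and the Gamma mouse at 100 cGy. It was 160146 and 237977 there, against 265015 to 324203 in the other 18. In the 4 mice given 150 or 200 cGy, each gene's deviation from its mean correlated with the GC content of its transcript at r between -0.40 and -0.35 across genes, which are not independent replicates. In the other 16 mice r lay between -0.02 and 0.28. This library property and the highest doses cannot be told apart. Values without these mice are given beside the results that they change, where such fits were made.

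For each gene the counts are given first, in each mouse for Aen, Eda2r, Bax, Ei24 and Phlda3. For the other members the range and median are given, and the plot of counts by dose shows every mouse. The dose slope is the change in log2 count per 100 cGy from edgeR's quasi-likelihood test, fitted with a separate line for each radiation type. The exact trend ranks the counts against dose (Spearman's rho) and asks, by a permutation test on the upper side alone, how many of all orders of the 10 doses give as high a rho. The comparison with sham takes each dose by itself, with its Proton and its Gamma mouse as 2 samples. It assumes that the radiation types are alike apart from a constant shift. A gene was called when its p, adjusted over all 13124 tested genes, was at most 0.1.

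Promoters are shown next for the members that carry a match to a p53 response element unit near their start. RefSeq promoter sequences, from 250 bases before to 50 bases after a transcription start in GRCm38.p6, matched 7 members. Tnfrsf10b, Perp and Pmaip1 had no such sequence, and none of them is among the genes that rose with dose in both radiation types. The 10-base unit of the p53 consensus was searched. It is its own reverse complement, so that a search of either strand gives the same matches, which do not overlap with another motif searched here. A unit was found for Aen, Bax and Ei24, that is for 42.9% of the 7 members, against 9.55% of 27025 genes. Bbc3, Fas, Eda2r and Phlda3 held none in these windows. In the sequences of these 3 promoters, printed 5′ to 3′ on the strand of the gene, capitals mark the unit.
Aen, chr7:78895677-78895976, plus strand: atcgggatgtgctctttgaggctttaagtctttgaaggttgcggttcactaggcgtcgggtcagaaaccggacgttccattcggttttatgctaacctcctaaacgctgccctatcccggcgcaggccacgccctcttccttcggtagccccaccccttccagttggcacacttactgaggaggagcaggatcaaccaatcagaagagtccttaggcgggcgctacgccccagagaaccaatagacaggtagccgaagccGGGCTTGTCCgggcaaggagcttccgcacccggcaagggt
Bax, chr7:45466849-45467148, minus strand: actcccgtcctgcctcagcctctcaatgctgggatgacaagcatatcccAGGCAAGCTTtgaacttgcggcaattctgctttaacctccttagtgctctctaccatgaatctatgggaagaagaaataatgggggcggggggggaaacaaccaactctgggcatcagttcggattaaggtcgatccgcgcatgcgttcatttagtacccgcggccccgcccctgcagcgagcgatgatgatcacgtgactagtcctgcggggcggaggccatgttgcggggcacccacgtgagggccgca
Ei24, chr9:36797285-36797584, minus strand: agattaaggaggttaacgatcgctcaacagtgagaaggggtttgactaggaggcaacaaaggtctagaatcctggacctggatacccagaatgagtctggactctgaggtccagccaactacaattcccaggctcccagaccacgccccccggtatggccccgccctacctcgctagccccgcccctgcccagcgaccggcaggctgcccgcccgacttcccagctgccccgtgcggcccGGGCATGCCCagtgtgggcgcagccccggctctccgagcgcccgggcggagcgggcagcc

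The unit began 10 bases after the upstream annotated start of Aen, which is 121 bases before its other start, 201 bases before that of Bax and 10 bases before that of Ei24. A response element needs a pair of such units. In the mm9 genome, within 2000 bases on either side of the gene start and with at most 13 bases between the units, 0 of 9 members held a pair without mismatch, against 1.23% of 12578 genes. With at most 1 mismatch, Bax alone held pairs, against 12.5% of genes. These are matches of letters only, and binding of p53 was not measured here. The part of the unit in the rise with dose was not tested.

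The 4 members that rose with dose in both radiation types were Aen, Eda2r, Bax and Ei24. The dose slope was called upward for 4 members after proton radiation, where 1.6% of all tested genes were called upward. It was called for the same 4 members after gamma radiation, where 5.44% of genes were. The median slope of the 9 tested members was 0.45 per 100 cGy for the Proton and 0.42 for the Gamma mice, on the log2 scale, against 0.0018 and 0.013 over all tested genes. The members that reached the minimum count are not all members, and their median is a description.

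**Figure D1:**
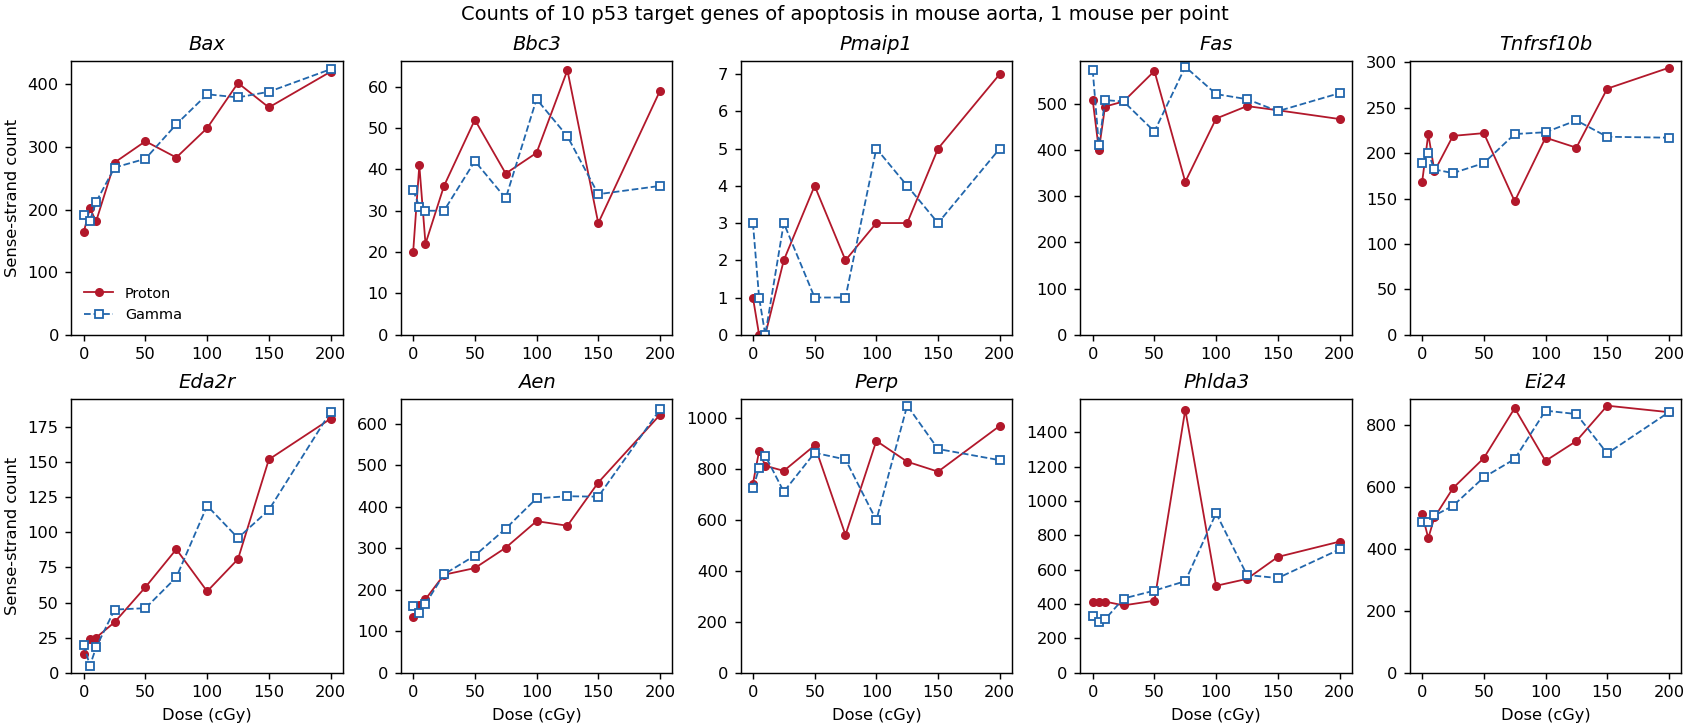
Sense-strand counts of the 10 members (vertical axes, each from 0) against dose in cGy (horizontal axes), with 1 mouse per point, filled circles for Proton and open squares for Gamma mice. Bax, Eda2r, Aen and Ei24 climb with dose in both types, Fas and Perp show no such climb, and Phlda3 peaks at 1531 in the Proton mouse at 75 cGy and at 928 in the Gamma mouse at 100 cGy.

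The plot of counts by dose shows the Proton and Gamma curves of Aen and Bax running side by side from sham to the highest dose. Aen (ENSMUSG00000030609, chromosome 7 of mm9, 86040740 to 86056095, plus strand) encodes a p53-induced nuclease that takes part in DNA fragmentation. Its counts after 0 to 200 cGy of protons, in order of dose, were 133, 164, 177, 236, 252, 301, 365, 354, 458 and 621. After gamma radiation they were 160, 145, 166, 237, 282, 347, 420, 425, 424 and 634. The mice given 100 cGy or more did not overlap with those given 25 cGy or less in either type. The same held in both types for Eda2r, Bax, Ei24 and Phlda3. How many of all tested genes separate in this way was not counted, so that it is a description only. The count at 200 cGy was 4.67 times that of the sham mouse with protons and 3.96 times with gamma rays. Aen had a log2 slope per 100 cGy of 0.99 ± 0.09 (SE) in both types (edgeR adjusted p = 1.02e-05 for protons and 1.38e-05 for gamma rays). The rank correlation with dose was 0.988 after proton radiation (exact permutation test, p = 2.76e-06, adjusted 0.0181) and 0.976 after gamma radiation (exact permutation p = 1.05e-05, adjusted 0.0153).

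Eda2r (ENSMUSG00000034457, chromosome X, 94529179 to 94572555, minus strand), a receptor of the ligand EDA-A2, had the steepest slopes of the members and a low level in sham mice. Its counts after protons were 13, 24, 25, 36, 61, 88, 58, 81, 152 and 181 in order of dose. After gamma rays they were 20, 5, 18, 45, 46, 68, 119, 96, 116 and 186. The 2 mice at 200 cGy were the highest of their type. As a description, no mouse at 100 cGy or more overlapped with those at 25 cGy or less. Eda2r had a log2 slope per 100 cGy of 1.57 ± 0.25 (SE) for the Proton mice (edgeR adjusted p = 0.00335) and 1.73 ± 0.25 (SE) for the Gamma mice (edgeR adjusted p = 0.0017). The exact trend gave a rho of 0.939 after proton radiation (permutation p = 0.000103, adjusted 0.0642) and of 0.927 after gamma radiation (permutation p = 0.000167, adjusted 0.0348). With the mice at 150 and 200 cGy left out, the proton slope was 1.69 and no longer called (edgeR adjusted p = 0.623), and the gamma slope was 2.35 (edgeR adjusted p = 0.0558).

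Bax (ENSMUSG00000003873, chromosome 7, 52717065 to 52722268, minus strand) is the pore-forming member of the BCL2 family among the 10 genes. In order of dose, its counts were 164, 202, 181, 275, 309, 283, 330, 402, 363 and 420 after protons and 191, 182, 212, 267, 281, 336, 384, 379, 388 and 424 after gamma rays. The mice at 100 cGy or more stood above all those at 25 cGy or less, which is again a description only. Bax had a log2 slope per 100 cGy of 0.62 ± 0.09 (SE) for the Proton mice (edgeR adjusted p = 0.00172) and 0.60 ± 0.09 (SE) for the Gamma mice (edgeR adjusted p = 0.00214). The rank correlation was 0.964 after protons (exact permutation p = 2.45e-05, adjusted 0.0347) and 0.976 after gamma rays (exact permutation p = 1.05e-05, adjusted 0.0153).

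Ei24 (ENSMUSG00000062762, chromosome 9, 36586740 to 36604938, minus strand) is the most abundant by count of the 4 genes and rose least. It overlaps the noncoding gene Gm16881 on the opposite strand, and the counts used here are those of the sense strand. Its counts were 511, 434, 501, 595, 692, 853, 683, 747, 861 and 840 after protons and 486, 485, 507, 538, 630, 689, 845, 834, 707 and 840 after gamma rays, in order of dose. The highest Gamma count was that of the mouse at 100 cGy, and the Proton mouse at 75 cGy reached 853. These are the 2 mice rich in brown fat transcripts, and they stood furthest above the dose line of their type, by 0.24 and 0.35 on the log2 scale. Without them Ei24 was called in both types, with slopes of 0.43 and 0.39 (edgeR adjusted p = 0.00125 and 0.00257). Ei24 had a log2 slope per 100 cGy of 0.44 ± 0.08 (SE) for the Proton mice (edgeR adjusted p = 0.0143) and 0.42 ± 0.08 (SE) for the Gamma mice (edgeR adjusted p = 0.0118). The exact trend was called after gamma radiation (rho 0.903, permutation p = 0.000404, adjusted 0.0525) and not after proton radiation (rho 0.842, permutation p = 0.00185, adjusted 0.326). Without the mice at 150 and 200 cGy, the proton slope of 0.57 was not called (edgeR adjusted p = 0.127) and the gamma slope of 0.66 was (edgeR adjusted p = 0.0197). Aen and Bax were called in both types without these mice, with slopes of 1.04 and 0.84 for protons and 1.24 and 0.83 for gamma rays (edgeR adjusted p between 0.0018 and 0.0276).

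The exact trend was called for 3 members after proton radiation (0.198% of all tested genes) and for 5 members after gamma radiation (1.9% of genes). The 3 were Aen, Bax and Eda2r, and the gamma test added Ei24 and Phlda3.

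**Figure D2:**
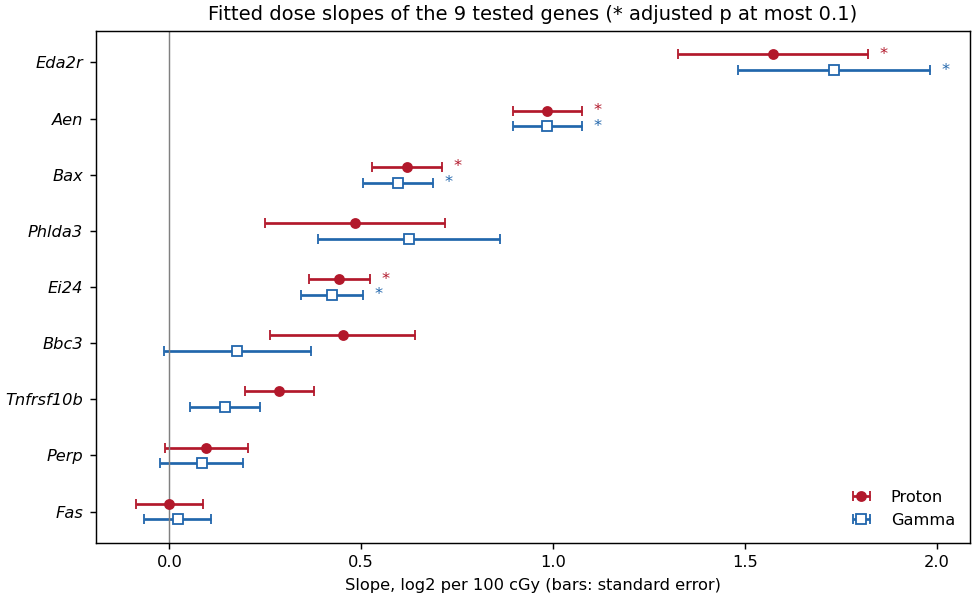
Dose slopes of the 9 tested members (horizontal axis, change in log2 count per 100 cGy) with their standard errors as bars, filled circles for Proton and open squares for Gamma, and an asterisk where the adjusted p was at most 0.1. Eda2r, Aen, Bax and Ei24 carry asterisks in both types, and the Proton and Gamma points of Aen coincide at 0.99.

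The plot of slopes shows Phlda3 with slopes of the size of those of Bax and Ei24 but wider errors and no call. Phlda3 (ENSMUSG00000041801, chromosome 1, 137662696 to 137665713, plus strand) competes with AKT for membrane lipids. Its counts after protons were 410, 409, 414, 392, 419, 1531, 506, 546, 674 and 763 in order of dose, and after gamma rays 328, 294, 311, 432, 478, 533, 928, 569, 551 and 718. The highest counts of both types came from the 2 mice rich in brown fat transcripts, and the other 18 mice lay between 294 and 763. Phlda3 had a log2 slope per 100 cGy of 0.48 ± 0.24 (SE) for the Proton mice (edgeR adjusted p = 0.427) and 0.62 ± 0.24 (SE) for the Gamma mice (edgeR adjusted p = 0.169). The exact trend was called after gamma rays (rho 0.879, permutation p = 0.0008, adjusted 0.0718) and not after protons (rho 0.794, permutation p = 0.00439, adjusted 0.497). Without the Proton mouse at 75 cGy and the Gamma mouse at 100 cGy, a choice made after seeing the data, the slopes of 0.47 and 0.54 were called in both types (edgeR adjusted p = 0.000852 and 0.00035). With all mice and the log2 brown fat sum as a covariate, they were 0.63 and 0.52 (edgeR adjusted p = 0.021 and 0.0199). Leaving out the Proton mouse at 75 cGy alone was enough for a call in both types (edgeR adjusted p = 0.0432 for protons and 0.00985 for gamma rays). In that fit 454 genes were called upward for protons and 988 for gamma rays, against 210 and 714 with all mice. Without both mice the numbers were 560 and 1113. With all mice, the gamma slope alone was called by DESeq2 (adjusted p = 0.0794) and with GC and length offsets (edgeR adjusted p = 0.0922). With 1 surrogate variable both slopes were called (edgeR adjusted p = 0.0334 and 0.0133). With all mice up to 125 cGy, the slopes of Phlda3 were 0.82 and 1.03 and were not called (edgeR adjusted p = 0.982 and 0.698).

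**Figure D3:**
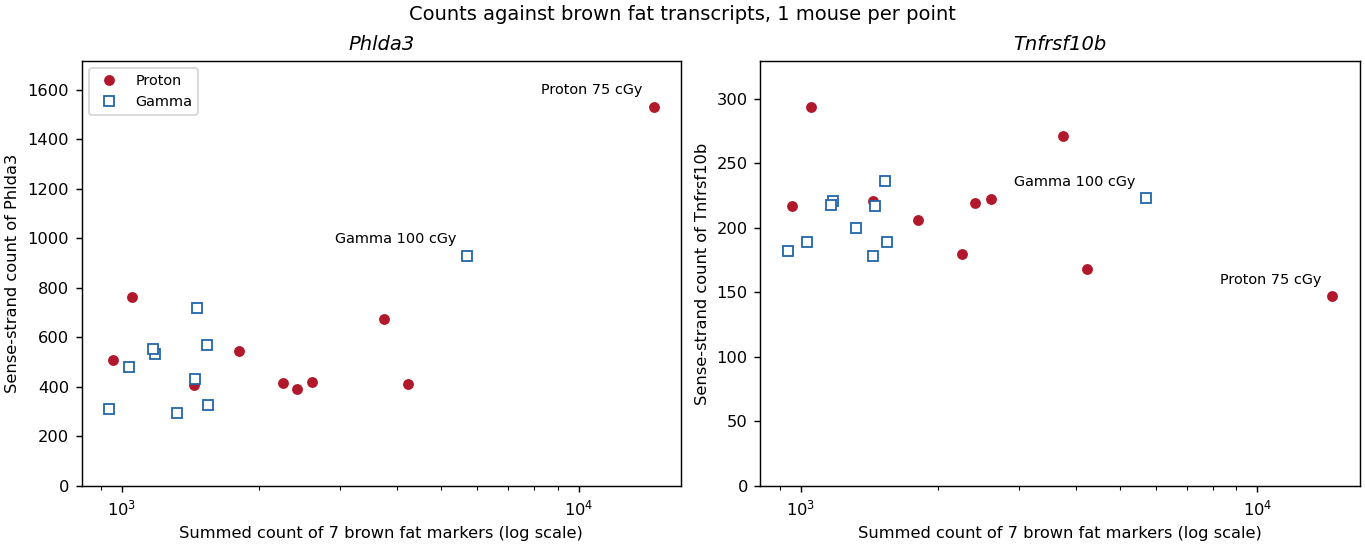
Counts of Phlda3 and Tnfrsf10b (vertical axes, from 0) against the summed count of 7 brown fat markers (horizontal axes, log scale), with 1 mouse per point, filled circles for Proton and open squares for Gamma. The 2 labelled mice lie to the right of all others, at 14594 and 5706, where Phlda3 counts are highest, and Tnfrsf10b has its lowest count of 147 in the Proton mouse at 75 cGy.

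Neither death receptor had a called slope, and the plot against brown fat transcripts shows Tnfrsf10b beside Phlda3. Tnfrsf10b (ENSMUSG00000022074, chromosome 14, 70167279 to 70184210, plus strand) is the mouse receptor of the ligand TRAIL. Its counts ranged from 147 to 294 after protons, with a median of 218 and the highest count at 200 cGy. After gamma rays they ranged from 178 to 236 with a median of 208.5. The Gamma mice at 100 cGy or more stood above those at 25 cGy or less, while the Proton mice overlapped. How many of all genes separate in this way was not counted. Tnfrsf10b had a log2 slope per 100 cGy of 0.29 ± 0.09 (SE) for the Proton mice (edgeR adjusted p = 0.133) and 0.15 ± 0.09 (SE) for the Gamma mice (edgeR adjusted p = 0.445). Without the Proton mouse at 75 cGy the proton slope of 0.28 was called (edgeR adjusted p = 0.0386), and likewise without the Proton mouse at 125 cGy (slope 0.31, edgeR adjusted p = 0.0661). These omissions also raised the number of all genes called upward for protons, to 454 and 546, against 210 with all mice. With the mice at 150 and 200 cGy left out, the proton slope of Tnfrsf10b was 0.03 (edgeR adjusted p = 0.988), and without the Proton mouse at 200 cGy alone it was 0.20 (edgeR adjusted p = 0.902). The gamma slope was called under no alternative.

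Fas (ENSMUSG00000024778, chromosome 19, 34365149 to 34402260, plus strand), the receptor of Fas ligand, had no rise with dose in these mice. Its counts were 331 to 571 after protons, with a median of 490.0, and 410 to 580 after gamma rays, with a median of 509. The sham mice, with 508 and 573, were each exceeded by 1 irradiated mouse of their type. Fas had a log2 slope per 100 cGy of -9e-04 ± 0.09 (SE) for the Proton mice and 0.02 ± 0.09 (SE) for the Gamma mice (edgeR adjusted p = 1 and 0.949).

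Perp (ENSMUSG00000019851, chromosome 10, 18564877 to 18576879, plus strand) had the highest mean count of the members, with 542 to 971 after protons (median 822) and 600 to 1051 after gamma rays (median 837.5). Its lowest counts were those of the 2 mice rich in brown fat transcripts, 542 and 600, against 712 to 1051 in the other 18. The log2 slopes per 100 cGy were 0.10 ± 0.11 (SE) for the Proton and 0.08 ± 0.11 (SE) for the Gamma mice (edgeR adjusted p = 0.795 and 0.785). Without these 2 mice they were 0.09 and 0.10 and were not called (edgeR adjusted p = 0.524 and 0.402).

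The 2 BH3-only genes had the lowest mean counts of the members. Bbc3 (ENSMUSG00000002083, chromosome 7, 16894965 to 16903554, plus strand) had counts of 20 to 64 after protons with a median of 40.0, and of 30 to 57 after gamma rays with a median of 34.5. In the Proton mice the lowest count was that of the sham mouse and the highest that at 125 cGy, but the count at 150 cGy was 27. Bbc3 had a log2 slope per 100 cGy of 0.45 ± 0.19 (SE) for the Proton mice (edgeR adjusted p = 0.307) and 0.18 ± 0.19 (SE) for the Gamma mice (edgeR adjusted p = 0.735). The Bbc3 transcript has the highest GC content of the members, 65.2%, and libraries at 150 and 200 cGy were poor in GC-rich transcripts. With offsets for GC content and length in each library, the proton slope of Bbc3 was 0.67 and was called (edgeR adjusted p = 0.0664), and the gamma slope was 0.39 (edgeR adjusted p = 0.295). Aen, Bax, Eda2r and Ei24 were called in both types with these offsets.

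Pmaip1 (ENSMUSG00000024521, chromosome 18, 66618258 to 66625204, plus strand) had 0 to 7 counts after protons, with a median of 2.5, and 0 to 5 after gamma rays, with a median of 3.0. It stood at 0 in 2 Proton mice and 1 Gamma mouse. In the Proton mice the counts were highest at 200 cGy, with 7, and at 150 cGy, with 5. The rank correlation with dose was 0.875 for protons and 0.611 for gamma rays, as a description. With a filter of 1 count in any mouse, its log2 slopes of 1.46 and 0.86 per 100 cGy were not called (edgeR adjusted p = 0.212 for protons and 0.453 for gamma rays).

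The levels of the genes were compared per length, as counts per kilobase of exon scaled to library size (RPKM). In the 2 sham mice, the mean level was 63.8 for Perp, 49.6 for Fas, 39.1 for Phlda3, 36.6 for Ei24 and 21.9 for Bax. The others lay lower, at 9.29 for Tnfrsf10b, 4.25 for Aen, 2.26 for Bbc3, 0.46 for Eda2r and 0.12 for Pmaip1. At 200 cGy, Bax stood at 52.0 and Fas at 45.4, so that their order was the reverse of that in sham mice. Aen, at 18.2, had passed Tnfrsf10b, at 13.3, and Eda2r, at 5.14, had passed Bbc3, at 3.91. Perp and Phlda3 were level at 78.5 and 78.4. These means are over 1 Proton and 1 Gamma mouse, and no test was made of the order.

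Which dose first raised these genes was asked in several ways. By the counts alone, every mouse from 10 cGy upward had more Aen counts than both sham mice. At 10 cGy the margin was narrow, with 177 in the Proton and 166 in the Gamma mouse against 160 in the higher sham mouse. The fitted level of Aen at 10 cGy was 1.20-fold that of sham and was not called, so that no rise is shown at this dose. Every mouse was likewise above both sham mice for Bax, Eda2r and Ei24 from 25 cGy and for Phlda3 from 50 cGy. The same held for Tnfrsf10b from 100 cGy and for Perp from 125 cGy. Bbc3 and Pmaip1 exceeded both shams in both types from 200 cGy on, and Fas at no dose. Of all tested genes, 0.434% were above both shams in every mouse from 10 cGy up, 0.724% from 25 cGy, 1.02% from 50 cGy, 3.11% from 100 cGy, 5.78% from 125 cGy and 23.6% at 200 cGy. Where both mice of the last dose alone decide, as for Bbc3 and Pmaip1, the count of members is to be read against this last share.

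In the comparison of each dose with sham, Bax and Aen were called at 75, 100, 125, 150 and 200 cGy, and Eda2r and Ei24 at 150 and 200 cGy. No member was called at 5, 10, 25 or 50 cGy, where 0% of all tested genes were called by edgeR. Unadjusted, 727, 194, 121 and 202 genes rose at these 4 doses with a p under 0.05, of which 0, 0, 3 and 5 were members. DESeq2 called 15, 0, 1 and 3 genes there. The share of all genes called upward was 0.0762% at 75 cGy, 0.0533% at 100 cGy, 0.137% at 125 cGy, 6.02% at 150 cGy and 6.5% at 200 cGy. The larger shares at 150 and 200 cGy rest on the 4 mice whose libraries differed in their relation to GC content. With GC and length offsets they were 1.21% and 1.68%, and without the Gamma sham mouse 0.808% and 1.9%. The 4 members called at these doses were called there with the offsets too, and without the Gamma sham mouse Ei24 was not called at 150 cGy.

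**Figure D4:**
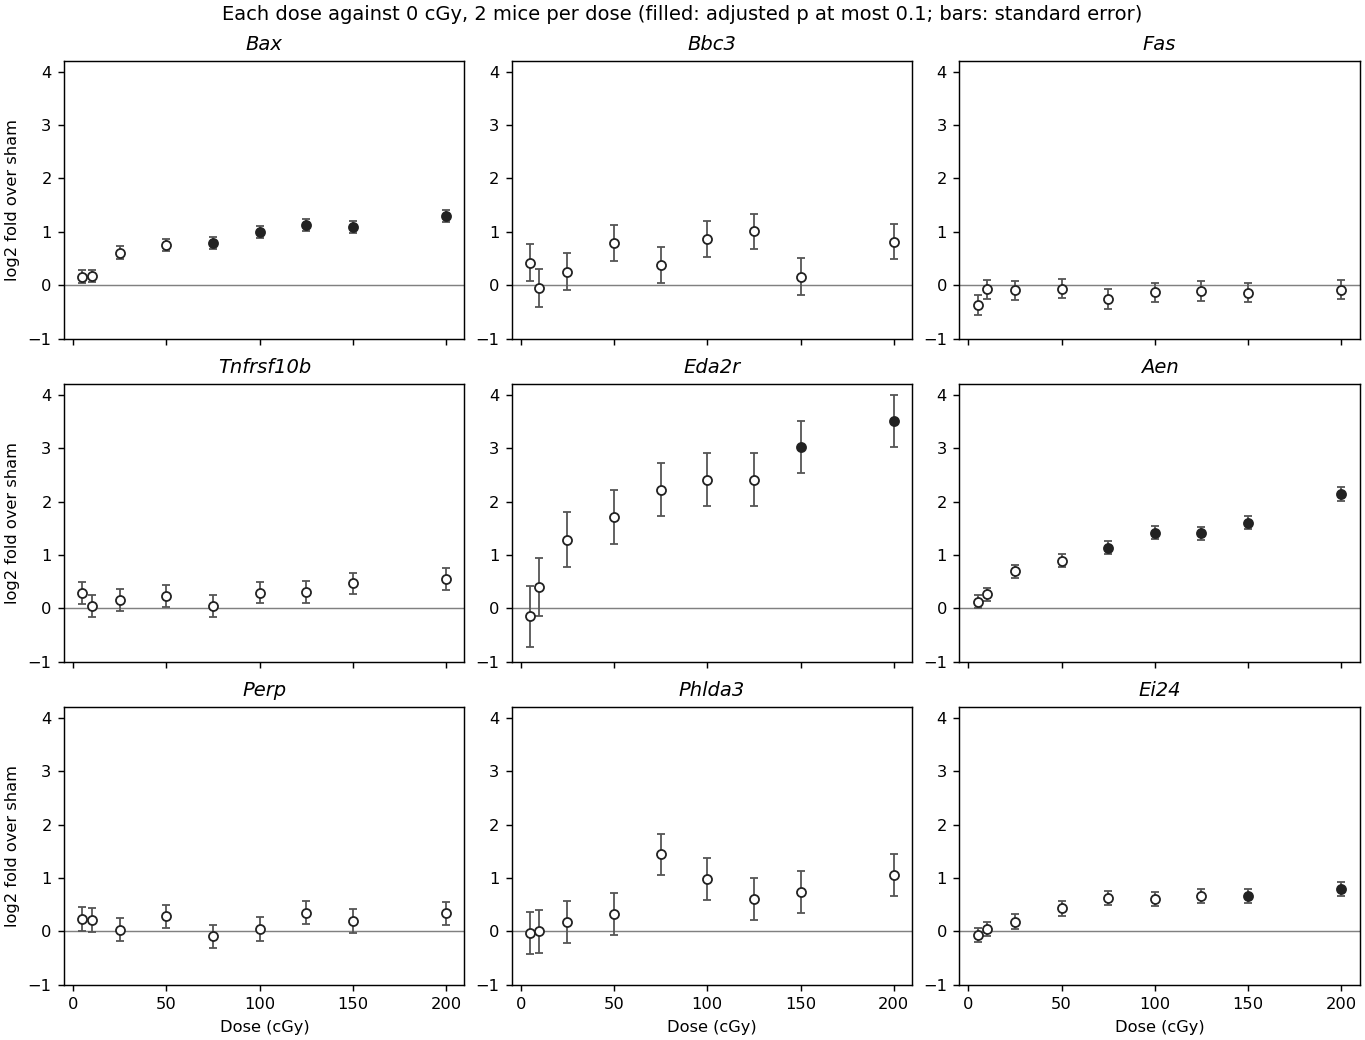
Log2 fold over the sham mice (vertical axes) for each dose in cGy (horizontal axes) of the 9 tested members, from the fit with dose as a factor and 2 mice per dose, with standard errors as bars and filled points where the adjusted p was at most 0.1. Aen and Bax are filled from 75 cGy and Eda2r and Ei24 at 150 and 200 cGy, while the points of Fas lie between -0.37 and -0.07.

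The plot of folds over sham shows the size of the response at each dose. Aen was 1.61-fold above sham at 25 cGy (unadjusted edgeR p = 0.000136, adjusted 1), 1.86-fold at 50 cGy (adjusted 0.143), 2.20-fold at 75 cGy (adjusted 0.011) and 4.41-fold at 200 cGy (adjusted 7.61e-06). Bax was 1.53-fold above sham at 25 cGy (unadjusted edgeR p = 0.00017, adjusted 1), 1.69-fold at 50 cGy (adjusted 0.143), 1.73-fold at 75 cGy (adjusted 0.0385) and 2.45-fold at 200 cGy (adjusted 0.000148). For both genes the distance from sham at 25 cGy exceeded 5 standard errors without passing the adjustment over all genes. Eda2r was 2.44-fold above sham at 25 cGy and 11.3-fold at 200 cGy (edgeR adjusted p = 1 and 0.00202), and Ei24 was 1.14-fold and 1.73-fold (edgeR adjusted p = 1 and 0.00607).

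The lowest dose called moved with the setting. DESeq2, leaving out the 2 mice rich in brown fat transcripts, and taking the mice of 0, 5 and 10 cGy together as the low group each called Aen and Bax from 50 cGy. The last 2 of these settings were added after seeing the data. With GC and length offsets, Bax was called from 100 cGy and Ei24 from 125 cGy. Without the Proton sham mouse, Aen was called from 100 cGy and Bax from 125 cGy, and without the Gamma sham mouse Bax from 100 cGy and Ei24 from 200 cGy. Without the Gamma mouse at 75 cGy, Aen and Bax were called from 50 cGy and Eda2r and Ei24 from 75 cGy. In that fit the 75 cGy group was the 1 Proton mouse rich in brown fat transcripts, which is assumed to vary like the other groups, and 15.3% of all genes were called there. Over the 20 fits that left out 1 mouse, the lowest dose lay between 50 and 100 cGy for Aen, between 50 and 125 cGy for Bax, between 75 and 150 cGy for Eda2r and between 75 and 200 cGy for Ei24. Without the 2 mice rich in brown fat transcripts, Phlda3 and Tnfrsf10b were called at 150 and 200 cGy (edgeR adjusted p = 0.0122 and 0.00208 for Phlda3, 0.0892 and 0.0567 for Tnfrsf10b). The number of all genes called upward at these doses also grew, to 1124 and 1147, against 790 and 853 in the reported fit.

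A slope common to both types, fitted only to mice up to a given dose, used all low-dose mice together. Over 0 to 25 cGy no member was called among 8 mice (0% of genes by edgeR, with 121 genes and 4 members rising at an unadjusted p under 0.05). Over 0 to 50 cGy, Aen was called at a log2 slope of 1.80 ± 0.25 (SE) per 100 cGy, with an edgeR adjusted p of 0.0671, where 0.0152% of genes were called. Bax, at 1.52 per 100 cGy, was not (edgeR adjusted p = 0.155). Over 0 to 75 cGy, Aen, Bax, Eda2r and Ei24 were called (0.274% of genes), and so they were over 0 to 100 cGy (0.168%) and 0 to 125 cGy (0.442%). These 3 ranges leave out the mice at 150 and 200 cGy but hold the Proton mouse at 75 cGy, and the last 2 also hold the Gamma mouse at 100 cGy. No fit of these ranges was made without these 2 mice rich in brown fat transcripts. For Aen the slope fell from 1.80 over 0 to 50 cGy to 1.14 over 0 to 125 cGy, both per 100 cGy on the log2 scale.

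The bend of the curves was tested with a squared dose term common to both types. In the fit of all mice it was negative and called for Bax (-0.34, standard error 0.08, edgeR adjusted p = 0.0532) and Ei24 (-0.28, standard error 0.08, edgeR adjusted p = 0.0733). A negative term is a flattening towards high doses on the log2 scale. The share of all genes called was 5.33%. For Eda2r and Aen the term was -0.69 and -0.26 (edgeR adjusted p = 0.158 and 0.146). Over 0 to 125 cGy it stayed negative for these 4 genes, with an edgeR adjusted p of 0.881 for each. Of all genes 0 were then called, against 700 with all mice. The 4 mice at 150 and 200 cGy, which that range leaves out, are those whose libraries differed in their relation to GC content. The Bax transcript has 62.6% GC, and no fit of the bend is given with GC and length offsets. The flattening and this library property cannot be told apart.

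Proton and gamma radiation were compared directly. The slopes of the 2 types differed for 0 of the 9 members and for 0% of all tested genes by edgeR, with 254 genes and 0 members at an unadjusted p under 0.05. DESeq2 called 0 genes and had 240 at an unadjusted p under 0.05. The difference in slope, proton minus gamma, was 0.00 per 100 cGy for Aen (95% interval -0.27 to 0.27), 0.02 for Bax (-0.25 to 0.29) and 0.02 for Ei24 (-0.22 to 0.26). The interval was widest for Eda2r (-0.16, from -0.90 to 0.58) and Phlda3 (-0.14, from -0.84 to 0.56). For Bbc3 the difference was 0.27 (-0.29 to 0.84) and for Tnfrsf10b 0.14 (-0.13 to 0.41). At matched doses, sham included, the levels of the types also differed for 0% of genes and 0 members by edgeR, with 1032 genes and 0 members at an unadjusted p under 0.05. The estimates, proton minus gamma on the log2 scale, ran from -0.12 for Fas to 0.17 for Phlda3. These intervals bound the difference and do not show that the types act alike.

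Across the 20 mice, the log2 CPM values of Aen, Bax and Eda2r correlated with each other at r between 0.93 and 0.96, and Ei24 with these 3 at 0.89 to 0.91. Fas lay between -0.44 and 0.34 with the other members. The mice share dose and library in these correlations, which are descriptions. The 5 genes outside the members whose pattern over the 20 mice was most like the mean standardised pattern of the tested members were Ephx1, Ddit4l, Cdkn1a, Slc19a2 and Mdm2, with r from 0.91 to 0.95.

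The rest of the pathway was followed in lists of its parts, of which each count is to be read against the 1.34% of all tested genes, 176 of 13124, that rose in both types. Of p53 and its feedback genes, 3 of 4 rose in both types. The log2 slopes, Proton before Gamma, were 0.40 and 0.42 for Mdm2, the ubiquitin ligase of p53. Cdkn1a, an inhibitor of cyclin-dependent kinases, had 1.39 and 1.59, and Ccng1, cyclin G1, had 0.95 and 0.84 (the highest edgeR adjusted p of these 3 genes was 0.00518). Trp53 itself had slopes of -0.18 and -0.15 and was not called (edgeR adjusted p = 0.271 and 0.26). Its counts were 202 to 250 in the 4 mice at 150 and 200 cGy and 261 to 332 in the other 16, and with these 4 left out the slopes were 0.05 and -0.07 (edgeR adjusted p = 0.982 and 0.98). Of 11 tested further p53 targets linked to cell death, 2 rose in both types. These were Trp53inp1, a stress-induced p53 cofactor (1.05 and 1.22 per 100 cGy), and Apaf1, the scaffold of the apoptosome (0.56 and 0.52). Zmat3, an RNA-binding protein, passed after gamma rays (0.24, edgeR adjusted p = 0.0794) and not after protons (0.25, edgeR adjusted p = 0.118), and the difference between its slopes was not called.

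Of the 11 tested other BCL2 family genes, 1 rose in both types. This was Bcl2l1, which encodes the survival factor BCL-XL, with 0.33 and 0.36 per 100 cGy (edgeR adjusted p = 0.0493 and 0.0173). Bak1, the other pore former, had slopes of -0.12 and -0.13 (edgeR adjusted p = 0.474 and 0.307), and Mcl1, a survival factor, of -0.0043 and 0.06. Among 16 caspase and apoptosome genes, Apaf1, which the list of p53 targets also holds, was the 1 that rose in both types. Birc2 and Xiap, 2 caspase inhibitors of the IAP family, passed after gamma rays (0.36 and 0.33 per 100 cGy, edgeR adjusted p = 0.0243 and 0.032), while their proton slopes were 0.16 and 0.27 (edgeR adjusted p = 0.377 and 0.131). Of the 11 tested other death receptor genes, none rose in both types, and Ripk1 passed after gamma rays (0.39, edgeR adjusted p = 0.016, against 0.22 and 0.24 for protons). None of these lists held a gene that fell in the fit of all mice. The genes that passed in 1 type only, Bak1 and Mcl1 are named after their values were seen.

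Several list calls changed with the libraries that stood apart. With 0 to 125 cGy only, where 0.0837% of all genes rose in both types, Cdkn1a (1.60 and 2.34, edgeR adjusted p = 0.0977 and 0.00782) and Ccng1 (0.97 and 0.97, edgeR adjusted p = 0.0729 and 0.0347) were the listed genes that rose in both. Mdm2, Trp53inp1 and Bcl2l1 were then called after gamma rays, and Apaf1 in neither type (edgeR adjusted p = 0.821 and 0.469). With GC and length offsets the same 6 genes rose in both types as in the fit of all mice, and Zmat3, Birc2 and Xiap were called in neither. Without the Proton mouse at 75 cGy and the Gamma mouse at 100 cGy, the 6 genes rose in both types, and Zmat3, Xiap and Cflar, an inhibitor of caspase 8 named after its values were seen, were added (edgeR adjusted p between 0.0153 and 0.0953). In that fit 3.42% of all genes rose in both types, and Htra2 of the caspase list, likewise named after its value was seen, fell by 0.20 per 100 cGy of gamma rays (edgeR adjusted p = 0.0583).

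The marker lists of other cell types held no gene with a called slope in either type by edgeR, with 1 of 24 tested markers after protons and 2 after gamma rays at an unadjusted p under 0.05. They comprised 5 tested markers each of smooth muscle, endothelium and macrophages, 7 of brown fat and 2 of epithelium, and none of the 8 lymphocyte markers reached the minimum count. A slope need not show uneven levels between single doses. Endothelial markers summed to 2121 to 7288 counts, with 6731 and 6169 in the Proton and Gamma sham mice and 2121 to 4048 at 5 and 10 cGy. At 200 cGy they summed to 6456 and 7288. Macrophage markers summed to 193 to 1321, with 1192 and 1291 in the sham mice and 193 to 474 at 5 and 10 cGy. Epithelial markers summed to 3027 to 3604 counts in the 4 mice at 150 and 200 cGy and to 1778 to 2606 in the other 16, nearly all from Dsp and Krt18. The part of these cell types in the members' counts was not tested.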

How the data were processed

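RNA from 20 mouse aortas was sequenced with stranded, polyA-selected libraries. The authors aligned the reads to mm9 with STAR 2.5.2a, resampled the libraries to a common depth with PORT and deposited counts of sense-strand reads per gene. Library totals ran from 6051657 to 6058006. Samples were grouped by the radiation type and dose in their titles, with 1 mouse for each, so p-values of the slopes measure the spread between mice about a trend. Those of the comparisons with sham and at matched doses rest on how the difference between the Proton and the Gamma mouse varies over the doses. Those of the exact trend count orders of the doses.

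Counts were fitted in edgeR 4.0.16 (TMM, robust quasi-likelihood test, minimum mean count 5) with a separate intercept and slope per type. Other fits took dose as a factor, a common slope up to 125 cGy, a squared term and type with dose as a factor. Adjustment was by Benjamini-Hochberg over all tested genes, at 0.1. DESeq2 1.42.0, sva 3.50.0, other filters, scalings and dose scales, GC and length offsets and leaving out each mouse were alternatives. Exon lengths, GC content and coordinates came from GENCODE M1 on mm9, and promoters from RefSeq.

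The members and lists were chosen with earlier results of these data known. All 10 members are named, with every listed gene called in both types, Trp53, Mdm2, Cdkn1a and the 5 genes of most similar pattern.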

Additional observations from a re-analysis of the deposited data

Results flagged for a closer look

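In each radiation type, a mouse was singled out when its gap to the next mouse, in deviation from the dose line of log2 CPM, exceeded the share of the whole range set by Dixon's critical value for 10 mice. This was examined for 9 genes in both types, 18 groups in all, of which chance alone singles out about 1 in 20. Phlda3 stood 1.44 above its line in the Proton mouse at 75 cGy, with a count of 1531, and 0.73 above it in the Gamma mouse at 100 cGy, with a count of 928, gaps of 0.864 and 0.551 of the range. Perp stood at -0.60 from its line in the same Proton mouse, with a count of 542 and a gap of 0.644. These are the 2 mice with the highest summed counts of brown fat markers, 14594 and 5706, whose part in the deviations of Phlda3 and Perp was not tested.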

How the results depend on the processing

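The upward slopes of Aen, Bax, Eda2r and Ei24 kept their direction and call in 254 of 256 alternative fits over both types, the exceptions being Eda2r and Ei24 after protons with 0 to 125 cGy only, where 2 of the 4 members stayed called and fewer mice entered the fit. Of the calls of a member at a dose against sham, 14 in the reported fit, there were 22 with DESeq2, 22 without the Proton 75 cGy and Gamma 100 cGy mice and 24 with 0 to 10 cGy pooled, the last 2 settings and the brown fat covariate having been added after seeing the data. Leaving out 1 mouse gave 11 (without the Proton sham mouse) to 23 (without the Gamma mouse at 75 cGy). The lowest dose called was unchanged in 19 of 27 alternatives for each of the 4 genes. The 2 called bends became 0 with 0 to 125 cGy only.

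The signs that turned belonged to slopes and differences that were not called in any setting that turned them, and the cause was not tested. The proton slope of Fas was 0.0024 with a filter at 1 count and that of Perp -0.0073 with 0 to 125 cGy. The gamma slope of Fas was -0.0039 on log2 dose and -0.045 with GC offsets. Of the differences, proton minus gamma, Fas was at 0.0163 with GC offsets. With 0 to 125 cGy, Tnfrsf10b was at -0.2081, Perp at -0.1181 and Ei24 at -0.0941. With the brown fat covariate, Eda2r was at 0.0305, Perp at -0.1141 and Phlda3 at 0.113. Without TMM, Perp was at -0.0101 and Ei24 at -0.0036. Perp was further at -0.0022 on ranked dose, -0.0069 on log2 dose, -0.0375 with 1 surrogate variable and -0.0137 without the Proton 75 cGy and Gamma 100 cGy mice. Leaving out 1 mouse, the proton slope ranged from -0.0491 to 0.0192 for Fas and from -0.0044 to 0.1273 for Perp, and the gamma slope of Fas from -0.0338 to 0.0579. The differences ranged from -0.0922 to 0.1216 for Bax, from -0.0663 to 0.0282 for Fas, from -0.4225 to 0.0552 for Eda2r, from -0.0886 to 0.0624 for Perp and from -0.0575 to 0.1152 for Ei24.

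The number of all genes called upward moved far more than that of the members. For protons it was 210 in the reported fit, 13 with 0 to 125 cGy and 560 without the Proton 75 cGy and Gamma 100 cGy mice, and 28 (without the Proton mouse at 200 cGy) to 546 (without the Proton mouse at 125 cGy) over single omissions. For gamma rays it was 714, 29 with 0 to 125 cGy, 1218 with 1 surrogate variable, and 54 (without the Gamma mouse at 200 cGy) to 988 (without the Proton mouse at 75 cGy). At 75 cGy against sham it was 10, with 46 by DESeq2, 582 with the pooled low group, and 0 (without the Proton sham mouse) to 2002 (without the Gamma mouse at 75 cGy, which leaves 1 mouse at that dose) over single omissions. At 150 and 200 cGy it was 790 and 853, with 159 and 220 under GC and length offsets and 106 and 249 without the Gamma sham mouse. The upward share of the gamma calls was 71.1% and 59.2% with DESeq2, and that of the proton calls 90.9% and 69.8% with the brown fat covariate. With 1 mouse per dose and type, and 3 counts as the floor of a library, the counts of Pmaip1 stayed near that floor. The comparison at matched doses paired the Proton and the Gamma mouse of each dose and was made with and without TMM, with no member called in either.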
